A study of Mus musculus with 5 samples.

Results

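The T cell receptor (TCR) complex and its proximal signalling genes were followed in regulatory T cells (Tregs), a CD4 lineage set by the factor Foxp3 that keeps other immune cells in check, taken from neonatal skin and from its draining lymph nodes. The set is a list of 40 gene symbols, from the CD3 chains to the kinases, adaptors and attenuators next to them, and all 40 were found among the 24084 genes of the deposited count table and passed the low-count filter. RNA sequencing had been run on sorted Tregs of mice aged 13 days, in 2 libraries from skin and 3 from skin-draining lymph nodes. Both groups came from 1 line, given as Foxp3-DTR in the sample labels and Foxp3-DTR/GFP in the series' design text, a strain in which Foxp3-expressing cells carry the receptor for diphtheria toxin and a fluorescent tag. No treatment is named for either group. The sources used here give neither the sort gates nor how many animals stand behind a library, and p-values therefore measure only how far these libraries spread, which may be technical.

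The TCR itself has no enzymatic activity. Antigen binding is passed to the CD3 gamma, delta, epsilon and zeta chains, whose cytoplasmic tails are phosphorylated by the kinase Lck, which the co-receptor CD4 brings to the complex. The kinase Zap70 docks on these tails and phosphorylates the scaffolds Lat and SLP-76 (Lcp2), on which Plcg1, Vav1 and Ras exchange factors assemble. Calcium, diacylglycerol and Ras then feed NFAT, NF-kB and MAP kinase signalling, while phosphatases, ubiquitin ligases and diacylglycerol kinases limit the response. In Tregs the same machinery is needed both for selection in the thymus and for suppressive function in tissues.

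Gene counts per library were 10787378 and 10468795 in skin, against 12305644 to 14595018 in lymph node, with 9192 to 9894 genes detected in skin and 12173 to 12540 in lymph node. Foxp3 was found at 78.0 and 118 CPM (counts per 1000000 gene counts, TMM-scaled) in skin Tregs and at 89.6, 95.0 and 99.8 CPM in lymph node Tregs. The summed CPM of 4 Treg markers (Foxp3, Il2ra, Ctla4 and Ikzf2) was 5906 and 6387 in skin and 3269.9 to 3539 in lymph node. Ctla4 (2582 and 2198 CPM in skin, against 822, 677 and 645 in lymph node) carried much of that difference. Ikzf2 (2142 and 2769 CPM in skin, against 1357, 1307 and 1313 in lymph node) was higher as well. Foxp3 and Il2ra overlapped between tissues. Summed over 15 macrophage and dendritic cell markers, the level was 1519 and 2114 CPM in the skin libraries, in which Itgax and Cd207 were at 0, against 11.8 to 22.3 CPM in lymph node, where 7 of the 15 were at 0. Among B cell markers, Ms4a1, Cd79a and Pax5 had no count in skin (Pax5 had 0, 3 and 0 in lymph node), while Cd79b had 22.1 and 72.3 CPM in skin and 119, 61.7 and 120.4 CPM in lymph node. Of the CD8 T cell markers, Cd8a had no count in skin and Cd8b1 had 22.2 and 0 CPM in skin, against 45.4, 29.2 and 46.5 CPM in lymph node. Keratinocyte markers summed to 98.9 and 111 CPM in skin and to 2.32 to 4.39 CPM in lymph node, but they did not go together. Krt14 made up most of the skin sum (68.9 and 109.5 CPM, with 0 in lymph node), and Krt15 was found in skin library 1 but not 2. Krt10 went the other way, with 0 in both skin libraries and 2.32, 4.31 and 2.85 CPM in lymph node. Krt1 had no count in any library. The part of these other cells in the differences below was not tested. Constant segments of the TCR chains were not analysed here. In bulk RNA, fewer cells of a type cannot be told apart from less RNA of a gene per cell.

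Summed, the genes took a smaller share of the counts in skin Tregs, and abundant members weigh most in such a sum. Together the 40 made up 1.68 and 1.76% of gene counts in the skin libraries and 2.67, 2.68 and 2.82% in the lymph node libraries. The median log2 fold change (skin over lymph node) was -0.56 over the 40 genes, against -0.21 over all 11437 genes tested. That order turned without skin library 1 (members -0.49, all genes -0.81), with limma-voom (-0.72 and -0.85) and with the replicate number as a block (-0.74 and -0.86). A negative difference was found for 29 of the 40 and a positive one for 11. With edgeR's quasi-likelihood test and Benjamini-Hochberg adjusted p-values, computed over all 11437 genes, 2 of the 40 fell (Cd5 and Lck, adjusted p under 0.05) and 0 rose, where 5.30% of all genes were called lower and 2.40% higher. A share of 2 in 40 is near that background and is not a result about the set. At an unadjusted p under 0.05 there were 16 lower and 3 higher members. Of all 11437 genes 29.5% passed that mark in either direction, 2217 of them lower and 1155 higher. DESeq2 called 6 lower and 2 higher members (background 15.0% and 8.51%), and limma-voom 7 lower and 3 higher (background 14.6% and 4.95%). In edgeR fits that left out a library, the counts depended on it. Without skin library 1 there were 13 lower and 6 higher members (background 31.8% and 16.9%), and without skin library 2 there were 16 lower and 4 higher (background 24.8% and 14.4%). Without lymph node library 1, 2 or 3, edgeR called 0 members and 0% of all genes, while 9 to 13 members had an unadjusted p under 0.05.

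In 23 of the 40 genes both skin libraries lay below all 3 lymph node libraries, and in 4 both lay above. Among all tested genes the skin libraries lay below in 33.5% and above in 16.8%. Every member averaged at least 5 on the log2 CPM scale, so the 5742 genes above that level are the nearer background. In these 24.7% lay below and 23.8% above, and 591 were lower and 880 higher at an unadjusted p under 0.05. Their median log2 fold change was 0.035. How that median moves in the alternative fits was not computed. Members that lay below were mostly abundant ones. Of the 20 most abundant (mean over the 5 libraries 232 CPM or more), 17 lay below and 1 above, with a median log2 fold change of -0.75. Of the 20 least abundant, 6 lay below and 3 above, with a median of -0.22.

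**Figure D1:**
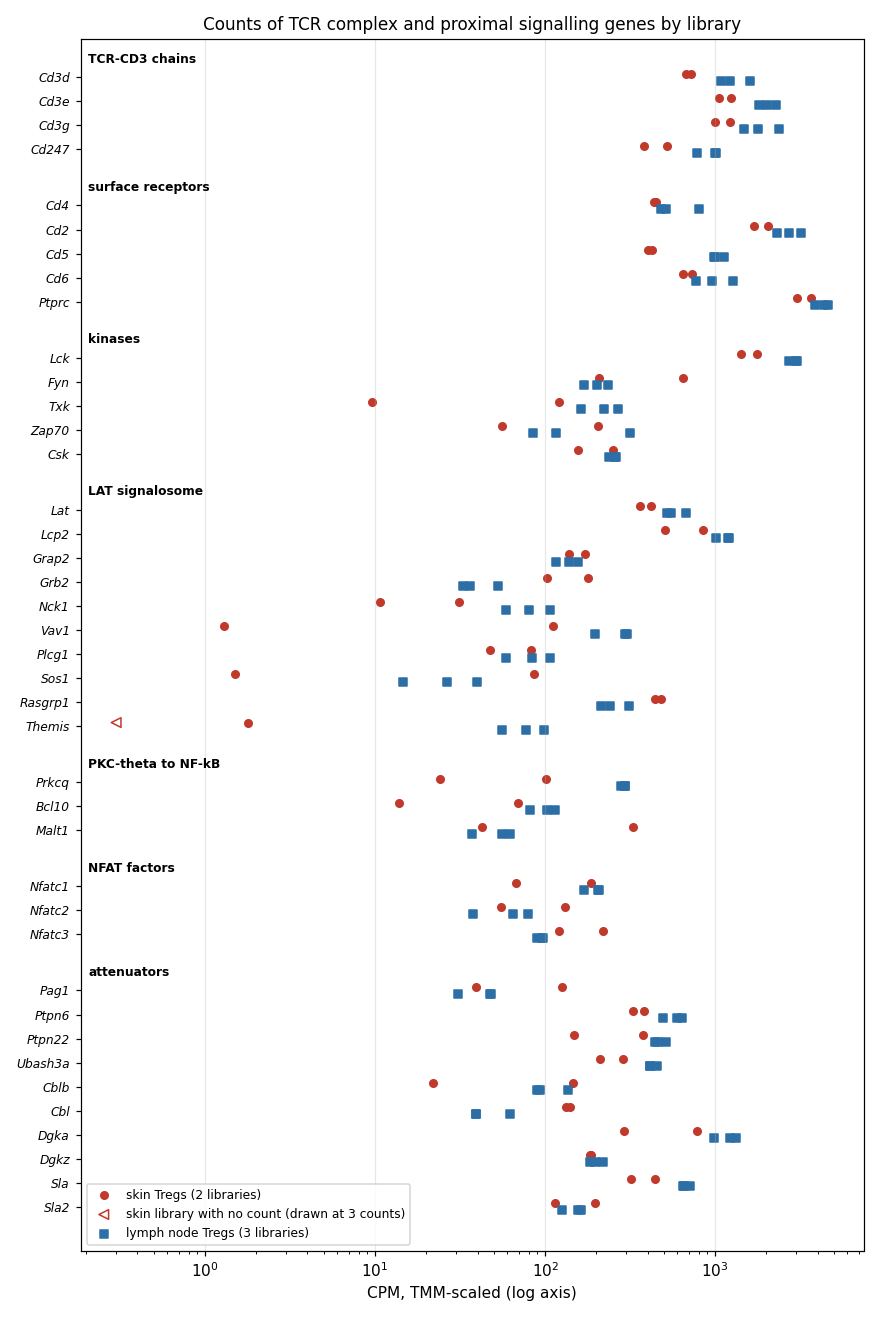
CPM of each of the 40 genes in each library on a log axis, grouped by role, with skin Tregs as red circles and lymph node Tregs as blue squares; an open triangle marks a skin library without a count. The CD3 chains, Cd2, Cd5, Lck, Lat and Lcp2 sit to the left in both skin libraries, and Cbl, Grb2 and Rasgrp1 to the right.

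The 4 CD3 chain genes were each at roughly the same fraction of the lymph node level, between 0.487 and 0.591, with no overlap between tissues. Of all genes averaging at least 5 on the log2 CPM scale, 24.7% lay below in the same way. Cd3e, the epsilon chain that pairs with both gamma and delta, had 1059 and 1233 CPM in skin Tregs, against 2004, 1802 and 2291 CPM in lymph node Tregs (log2 fold change -0.83, SE 0.19, edgeR adjusted p = 0.0545). Both skin values were under the lowest lymph node value. Cd3d, the delta chain, had 676 and 722 CPM in skin, against 1606, 1079 and 1217 CPM in lymph node (log2 fold change -0.90, SE 0.23, edgeR adjusted p = 0.0659). Cd3g, the gamma chain, had 999 and 1219.6 CPM in skin, against 2362, 1479 and 1793 CPM in lymph node (log2 fold change -0.76, SE 0.26, edgeR adjusted p = 0.118). For delta and gamma, lymph node library 1 was the highest of the 5. Cd247, the zeta chain that carries most of the phosphorylation motifs of the complex, had 523 and 382 CPM in skin, against 1002, 779 and 1005 CPM in lymph node (log2 fold change -1.04, SE 0.24, edgeR adjusted p = 0.0560). None of the 4 passed in edgeR, although all 4 had an unadjusted p under 0.05 (29.5% of all genes pass that mark). DESeq2 called Cd247 lower, and limma-voom called Cd247 and Cd3e lower. Of the 5329 exon bases of Cd247, 3007 overlap exons of Pou2f1 on the other strand, so its counts depend on a strand setting that the sources at hand do not state.

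The proportions between Cd3g, Cd3d and Cd3e overlapped between tissues. The count ratio of Cd3g to Cd3e was 0.944 and 0.989 in the skin libraries and 1.18, 0.821 and 0.782 in the lymph node libraries, and that of Cd3d to Cd3e was 0.638 and 0.586 in skin and 0.801, 0.599 and 0.531 in lymph node. Skin values of both ratios lay within the lymph node range. The ratio of Cd247 to Cd3e was 0.494 and 0.310 in skin and 0.5003, 0.433 and 0.439 in lymph node, so that skin library 2 lay below the lymph node range. Cd3g (chr9:44969572-44980431, minus strand) and Cd3d (chr9:44981786-44987339, plus strand) start 1355 bases apart and are read in opposite directions, and Cd3e (chr9:44998740-45009627, minus strand) lies 11401 bases beyond the end of Cd3d (GRCm38, the assembly of mm10).

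Of the 5 surface receptor genes, 1 fell, and all 5 were lower in both skin libraries than in every lymph node library. Over all tested genes 5.30% were called lower, and of those averaging at least 5 on the log2 CPM scale 24.7% lay below. Cd5, a scavenger-like receptor that dampens TCR signals and whose level is known to follow the strength of self-recognition, had 402 and 427 CPM in skin Tregs, against 986, 997 and 1121 CPM in lymph node Tregs. The groups stood far apart, with the replicates of each close together. Cd5 fell by 1.32 on the log2 scale, to 0.401 of the lymph node level (SE 0.18, edgeR adjusted p = 0.0381). That call was also made by DESeq2 and limma-voom. It was lost when lymph node library 1, 2 or 3 was left out (adjusted p 0.113 to 0.115), although the log2 fold change stayed between -1.37 and -1.26 over the 5 fits that each left out a library.

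The other four receptors differed less. Cd6, a relative of Cd5 that lies 50339 bases from it on chromosome 19, had 644 and 735 CPM in skin, against 769, 958 and 1265 CPM in lymph node (log2 fold change -0.53, SE 0.26, edgeR adjusted p = 0.248). Cd2, an adhesion receptor that binds CD48 in mice, had 1700.0 and 2035 CPM in skin, against 3177, 2309 and 2718 CPM in lymph node (log2 fold change -0.55, SE 0.20, edgeR adjusted p = 0.145). For the co-receptor gene Cd4 the values were 451 and 438 CPM in skin, against 477, 511 and 804 CPM in lymph node (log2 fold change -0.43, SE 0.29, edgeR adjusted p = 0.402). The separation of Cd4 rests on small gaps, since its 2 lowest lymph node libraries were close to the skin values. Ptprc, which encodes the phosphatase CD45 found on all leukocytes, had 3646 and 3020.4 CPM in skin, against 3839, 4602 and 4360.0 CPM in lymph node (log2 fold change -0.36, SE 0.17, edgeR adjusted p = 0.233).

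Among the kinases, Lck fell and Fyn, the second Src family kinase of T cells, was high in a single skin library. Lck had 1411 and 1765 CPM in skin Tregs, against 2991, 2712 and 3031 CPM in lymph node Tregs. It fell by 0.87 on the log2 scale, to 0.545 of the lymph node level (SE 0.18, edgeR adjusted p = 0.0492). This value is close to the threshold. The call was also made by DESeq2 and limma-voom. It was lost with DESeq2's size factors in edgeR (adjusted p = 0.0534), without a low-count filter (0.0586) and when lymph node library 1, 2 or 3 was left out (0.115 to 0.141), with log2 fold changes of -0.92 to -0.83 in these 5 fits. Fyn had 207 and 644 CPM in skin, against 236, 169 and 203 CPM in lymph node (log2 fold change 1.07, SE 0.49, edgeR adjusted p = 0.226). Skin library 1 was thus within the lymph node range for Fyn and skin library 2 well above it. The count ratio of Lck to Fyn was 6.82 and 2.74 in skin, against 12.7, 16.0 and 15.0 in lymph node, without overlap. This pair was picked for description, and no share over other gene pairs was taken.

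Zap70, the kinase recruited to phosphorylated CD3 chains, varied as widely within each tissue as between them. It had 55.7 and 205 CPM in skin, against 116, 315 and 84.7 CPM in lymph node (log2 fold change -0.40, SE 0.80, 95% interval -2.40 to 1.61, edgeR adjusted p = 0.806). The interval takes in large changes in either direction, so these libraries give no direction for Zap70. Txk, a Tec family kinase, had 121 and 9.59 CPM in skin, against 163, 269 and 221 CPM in lymph node (edgeR adjusted p = 0.331). Csk, which phosphorylates the inhibitory tyrosine of Lck, had 157 and 249 CPM in skin, against 237, 263 and 256 CPM in lymph node (edgeR adjusted p = 0.545).

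The sequences before the start sites of the CD3 genes and of Cd5 and Lck are shown because the CD3 genes lay lower together and Cd5 and Lck were the members called. Each is the stretch of 250 bases upstream of a start site, from RefSeq on GRCm38.p6, read 5′ to 3′ on the strand of the gene. Capitals mark the hexamers AGGAAG or CTTCCT (a core recognised by ETS factors), TGTGGT or ACCACA (a RUNX core) and CAGCTG (an E-box), searched on both strands, and no marked match overlaps another.
Cd3g, chr9:44980432-44980681, minus strand: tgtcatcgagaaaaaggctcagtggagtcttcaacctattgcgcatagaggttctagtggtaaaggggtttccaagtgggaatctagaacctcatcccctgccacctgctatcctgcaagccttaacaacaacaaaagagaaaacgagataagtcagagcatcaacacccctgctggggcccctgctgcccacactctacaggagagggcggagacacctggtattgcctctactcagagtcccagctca
Cd3d, chr9:44981536-44981785, plus strand: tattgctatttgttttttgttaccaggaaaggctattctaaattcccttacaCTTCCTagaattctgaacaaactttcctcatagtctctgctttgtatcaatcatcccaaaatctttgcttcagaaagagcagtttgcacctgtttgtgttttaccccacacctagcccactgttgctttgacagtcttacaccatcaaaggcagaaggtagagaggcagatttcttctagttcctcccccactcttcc
Cd3e, chr9:45009612-45009861, minus strand: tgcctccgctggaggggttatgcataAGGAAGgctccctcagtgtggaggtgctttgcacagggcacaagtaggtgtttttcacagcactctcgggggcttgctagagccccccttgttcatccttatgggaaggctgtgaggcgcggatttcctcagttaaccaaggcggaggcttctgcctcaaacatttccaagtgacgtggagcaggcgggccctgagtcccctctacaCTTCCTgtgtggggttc
Cd5, chr19:10738975-10739224, minus strand: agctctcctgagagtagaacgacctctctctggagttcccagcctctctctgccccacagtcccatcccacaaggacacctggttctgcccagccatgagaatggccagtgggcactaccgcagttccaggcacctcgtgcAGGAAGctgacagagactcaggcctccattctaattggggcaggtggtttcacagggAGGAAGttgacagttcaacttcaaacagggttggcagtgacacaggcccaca
Lck, upstream start, chr4:129573642-129573891, minus strand: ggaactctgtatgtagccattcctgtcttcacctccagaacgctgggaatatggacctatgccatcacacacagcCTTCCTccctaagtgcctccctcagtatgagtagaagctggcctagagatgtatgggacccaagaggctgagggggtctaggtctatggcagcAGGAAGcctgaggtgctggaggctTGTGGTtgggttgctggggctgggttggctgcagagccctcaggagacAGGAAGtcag
Lck, downstream start, chr4:129558373-129558622, minus strand: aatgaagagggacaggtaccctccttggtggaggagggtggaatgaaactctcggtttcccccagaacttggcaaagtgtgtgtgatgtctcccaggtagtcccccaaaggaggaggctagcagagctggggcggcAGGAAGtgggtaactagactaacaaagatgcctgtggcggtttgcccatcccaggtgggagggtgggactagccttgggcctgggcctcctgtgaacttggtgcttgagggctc

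Of the 6 windows, 5 hold the ETS hexamer and 1 the RUNX hexamer, and that of Cd3g holds none of the 3 motifs. RefSeq windows were at hand for 33 of the 40 members (49 start sites). The ETS hexamer was in 59.2% of these 49 windows, against 29.5% of all 32851 windows of the same length in the genome table. For the RUNX hexamer the shares were 12.2% and 14.1%, and for the E-box 6.12% and 13.0%. Start sites of a gene can share sequence, and a match is a description of letters only.

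Among the 10 adaptors, exchange factors and enzymes that assemble on Lat, 0 passed in edgeR and 6 had an unadjusted p under 0.05 (4 lower, 2 higher; 29.5% of all genes pass that mark), and the group split in direction. Lat, the membrane scaffold, had 363 and 421 CPM in skin Tregs, against 675, 519 and 549 CPM in lymph node Tregs (log2 fold change -0.57, SE 0.22, edgeR adjusted p = 0.154). Lcp2, which encodes the adaptor SLP-76, had 849 and 507 CPM in skin, against 1016, 1182 and 1209.8 CPM in lymph node (log2 fold change -0.74, SE 0.27, edgeR adjusted p = 0.141). For both, skin lay below lymph node without overlap. Plcg1, the phospholipase that makes diacylglycerol and the calcium-releasing messenger, had 47.5 and 83.1 CPM in skin, against 58.4, 106 and 83.4 CPM in lymph node (log2 fold change -0.34, SE 0.50, edgeR adjusted p = 0.719). Grap2, which links Lat to SLP-76, overlapped as well, with 138 and 172 CPM in skin and 138, 117 and 156 CPM in lymph node (edgeR adjusted p = 0.751).

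Both genes of this group that lay higher in skin encode activators of Ras, or the link to them. Rasgrp1, the diacylglycerol-dependent exchange factor for Ras in T cells, had 442 and 478 CPM in skin, against 241, 313 and 214 CPM in lymph node (log2 fold change 0.85, SE 0.24, edgeR adjusted p = 0.0816). Grb2, the adaptor that carries the exchange factor Sos1 to Lat, had 179 and 103 CPM in skin, against 52.7, 35.9 and 32.7 CPM in lymph node (log2 fold change 1.80, SE 0.46, edgeR adjusted p = 0.0651). Neither passed in edgeR. limma-voom called both higher and DESeq2 Grb2 alone. Grb2 is expressed in nearly all cells. Macrophage and dendritic cell markers were at 1519 and 2114 CPM in these skin libraries, against 11.8 to 22.3 CPM in lymph node. The part of those cells was not tested for Grb2, nor for Lcp2, which is also widely expressed in leukocytes and lay lower. Sos1 itself had 86.1 and 1.50 CPM in skin, against 26.6, 39.9 and 14.7 CPM in lymph node (edgeR adjusted p = 0.816), so the skin libraries stood on opposite sides of the lymph node range.

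Themis, an adaptor that tunes Lck and SHP-1 activity and is best known from thymocyte selection, was close to absent in skin Tregs. It had 1.78 CPM (19 counts) in skin library 1 and 0 in skin library 2, against 55.6, 98.6 and 77.2 CPM in lymph node Tregs (log2 fold change -6.42, SE 1.85, edgeR adjusted p = 0.0819). A count of 0 allows up to 0.300 CPM in that library. Pooled over libraries, the lymph node to skin ratio was 83.2 (exact 95% counting interval for 2 Poisson rates 53.2 to 138). That interval leaves out the spread between libraries. The edgeR 95% interval of the log2 fold change was wider, at -11.0 to -1.79. The edgeR call missed the threshold, while DESeq2 and limma-voom called Themis lower. Vav1, an exchange factor for Rac, had 112 and 1.30 CPM in skin, against 196, 296 and 301 CPM in lymph node (edgeR adjusted p = 0.409). Nck1, an adaptor to the actin machinery, had 10.7 and 31.3 CPM in skin, against 58.6, 107 and 79.8 CPM in lymph node (log2 fold change -1.96, SE 0.70, edgeR adjusted p = 0.136).

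**Figure D2:**
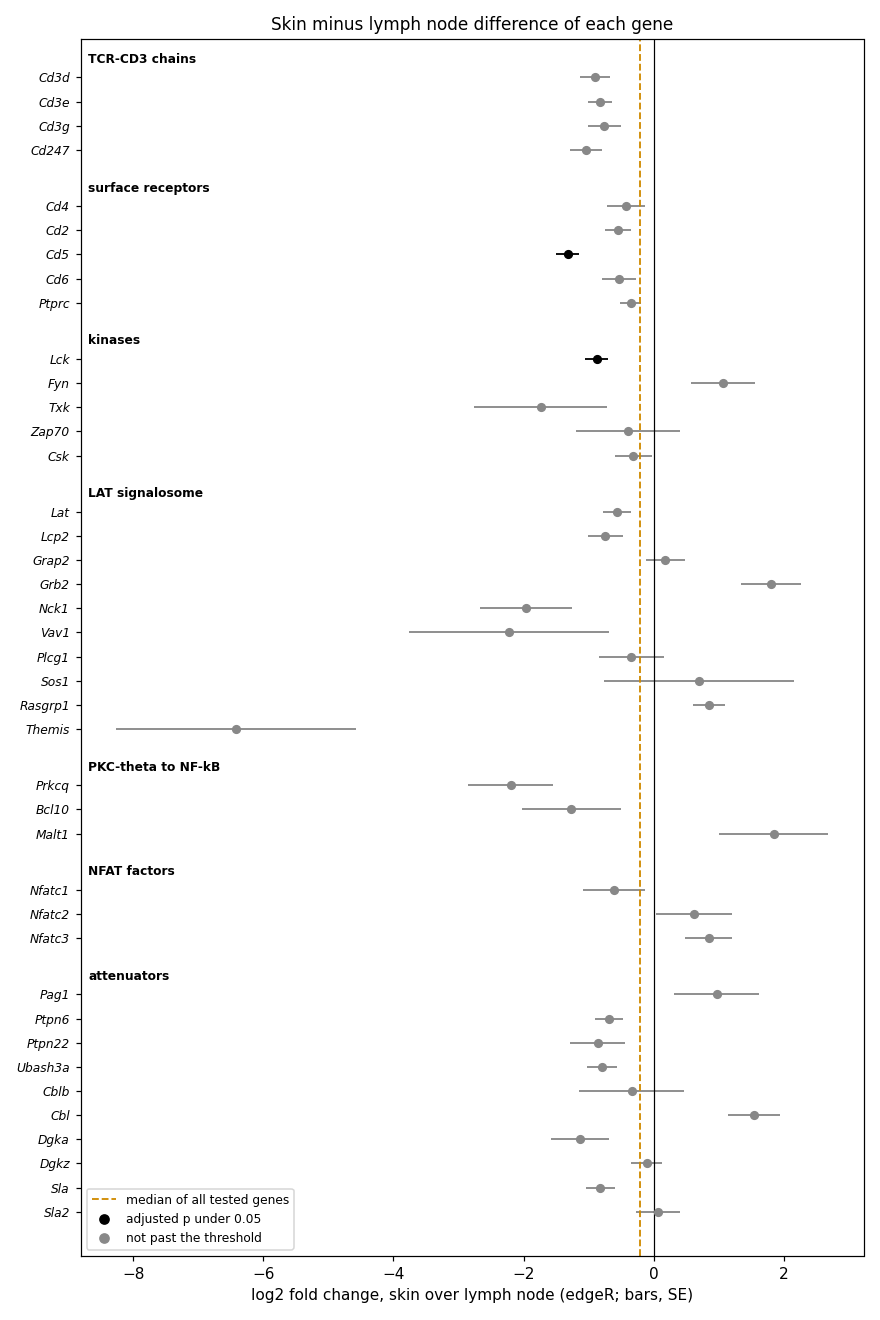
Log2 fold change of each gene, skin over lymph node, with its SE as a bar; black points passed an adjusted p of 0.05, grey points did not, and the dashed line is the median of all 11437 tested genes at -0.21. Cd5 and Lck are the 2 black points, and Themis lies farthest to the left at -6.42.

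In the branch to NF-kB, 0 of the 3 genes passed in edgeR and 1 had an unadjusted p under 0.05 (29.5% of all genes pass that mark). Prkcq, which encodes protein kinase C theta, had 102 and 24.1 CPM in skin Tregs, against 294, 294 and 278 CPM in lymph node Tregs (log2 fold change -2.20, SE 0.65, edgeR adjusted p = 0.0867). The lymph node libraries were nearly identical and both skin libraries far below them. DESeq2 and limma-voom called Prkcq lower. Bcl10, part of the complex that this kinase triggers, had 13.9 and 69.2 CPM in skin, against 82.0, 115 and 103 CPM in lymph node (edgeR adjusted p = 0.339). Malt1, the paracaspase of the complex, had 329 and 42.5 CPM in skin, against 55.8, 62.0 and 37.3 CPM in lymph node (edgeR adjusted p = 0.219). Only skin library 1 was high for Malt1.

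The NFAT genes encode the calcium-dependent transcription factors at the end of the pathway, and none of the 3 passed in edgeR, DESeq2 or limma-voom, or had an unadjusted p under 0.05 in edgeR (0 of 3). Nfatc3 had 120.1 and 219 CPM in skin, against 90.0, 95.7 and 97.2 CPM in lymph node (log2 fold change 0.84, SE 0.36, edgeR adjusted p = 0.197). Nfatc2 had 54.7 and 130.2 CPM in skin, against 64.4, 37.5 and 78.7 CPM in lymph node, and Nfatc1 had 67.7 and 186 CPM in skin, against 206, 204 and 169 CPM in lymph node (edgeR adjusted p = 0.557 and 0.474). The count ratio of Nfatc2 to Nfatc1 did not overlap between tissues, though each gene overlapped by itself and neither passed in edgeR. Among the pairs picked for description, Lck to Fyn, Cbl to Cblb, Cd4 to Cd3e and Dgkz to Dgka did not overlap either. Zap70 to Lck and the ratios of Cd3g, Cd3d and Cd247 to Cd3e did overlap. No share over other gene pairs was taken, so a separated ratio is a description only. Counts of Nfatc2 were 0.808 and 0.699 of those of Nfatc1 in skin, against 0.313, 0.183 and 0.465 in lymph node.

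Of the 10 genes that attenuate TCR signals, 0 passed in edgeR and 5 had an unadjusted p under 0.05 (4 lower, 1 higher; 29.5% of all genes pass that mark). Cbl, a ubiquitin ligase that removes activated receptors and kinases, was the only attenuator above the lymph node range in both skin libraries, with 139.8 and 132 CPM in skin, against 39.1, 61.9 and 39.3 CPM in lymph node (log2 fold change 1.54, SE 0.41, edgeR adjusted p = 0.0684). DESeq2 and limma-voom called Cbl higher. Its relative Cblb, a ligase that sets the need for co-stimulation, had 146 and 21.8 CPM in skin, against 89.3, 136 and 93.5 CPM in lymph node (edgeR adjusted p = 0.841). Cbl is expressed beyond T cells. Macrophage and dendritic cell markers were at 1519 and 2114 CPM in skin, against 11.8 to 22.3 CPM in lymph node. The part of those cells was not tested for Cbl, nor for widely expressed members that lay lower, such as Ptpn6 and Sla.

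Of the 10 attenuators, 5 lay below the lymph node range in both skin libraries, 1 lay above and 4 overlapped. Of all genes averaging at least 5 on the log2 CPM scale, 24.7% lay below and 23.8% above. The 5 that lay below were Ptpn6, Sla, Ubash3a, Ptpn22 and Dgka. Ptpn6, which encodes the phosphatase SHP-1, had 329 and 382 CPM in skin, against 492, 592 and 637 CPM in lymph node (log2 fold change -0.69, SE 0.22, edgeR adjusted p = 0.0986). Sla, which encodes an adaptor that promotes turnover of the zeta chain, had 318 and 442 CPM in skin, against 645, 652 and 713 CPM in lymph node (log2 fold change -0.82, SE 0.22, edgeR adjusted p = 0.0739), and limma-voom called it lower. Ubash3a, a suppressor of Zap70 signalling, had 209.7 and 285 CPM in skin, against 413, 415 and 457 CPM in lymph node (log2 fold change -0.79, SE 0.23, edgeR adjusted p = 0.0856). In these 3 genes no skin value reached the lymph node range.

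Ptpn22, a phosphatase that acts on Lck and Zap70, had 147 and 374 CPM in skin, against 440.4, 464 and 515 CPM in lymph node (edgeR adjusted p = 0.249). Dgka and Dgkz encode the diacylglycerol kinases that end Ras activation. Dgka had 292 and 778 CPM in skin, against 979.7, 1317 and 1215 CPM in lymph node (log2 fold change -1.13, SE 0.45, edgeR adjusted p = 0.166). Dgkz showed the tightest values of the set, with 187 and 183 CPM in skin, against 195, 183 and 220.2 CPM in lymph node (log2 fold change -0.11, SE 0.24, 95% interval -0.71 to 0.49, edgeR adjusted p = 0.828). Sla2, an adaptor related to Sla, had 196 and 114 CPM in skin, against 162, 126 and 156 CPM in lymph node (edgeR adjusted p = 0.930). Pag1, the membrane anchor of Csk, had 39.3 and 125 CPM in skin, against 48.0, 30.9 and 47.2 CPM in lymph node (edgeR adjusted p = 0.396). Sla2 and Pag1 both overlapped between tissues.

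Members were also split by the breadth of their expression. The 17 genes known mainly from T cells, or T and NK cells, had a median log2 fold change of -0.79, and 13 of them lay below lymph node in both skin libraries and 1 (Rasgrp1) above. The 23 genes with wider leukocyte or general expression had a median of -0.34, with 10 below and 3 (Grb2, Nfatc3 and Cbl) above. Of all genes with an average log2 CPM of at least 5, 24.7% lay below and 23.8% above. The called genes, Cd5 and Lck, are both in the first class, and 0 of the 23 wider genes passed in edgeR, with 7 at an unadjusted p under 0.05, a share near the 29.5% of all genes. DESeq2 called Cbl and Grb2 higher and Nck1 lower among these 23, and limma-voom Cbl and Grb2 higher and Sla lower.

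Counts were also taken relative to the summed counts of Cd3d, Cd3e and Cd3g in the same library, as a description without a test. That sum was 2734 and 3175 CPM in skin and 5971, 4360.3 and 5301 CPM in lymph node. On this scale Lck had 51.6 and 55.6% in skin and 50.1, 62.2 and 57.2% in lymph node, so the tissues overlapped. Sla, Ptpn6 and Ubash3a overlapped as well. Cd5 stayed lower, at 14.7 and 13.5% in skin, against 16.5, 22.9 and 21.1% in lymph node. The change of scale moved Lat and Cd2 to the other side, with Lat at 13.3 and 13.3% in skin, against 11.3, 11.9 and 10.4% in lymph node.

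**Figure D3:**
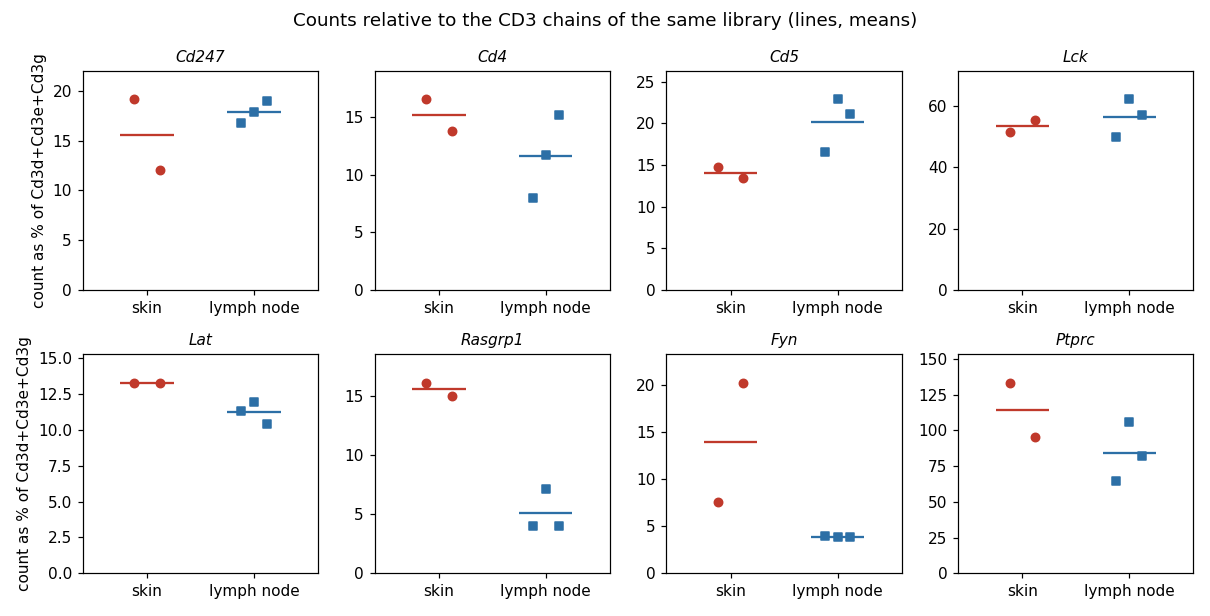
Counts of 8 genes as a percentage of the summed Cd3d, Cd3e and Cd3g counts of the same library, with skin at the left (2 libraries) and lymph node at the right (3 libraries) of each panel; lines are means. Lck overlaps between tissues, Cd5 is lower in skin and Rasgrp1 higher.

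Rasgrp1 lay above lymph node on the CD3 scale, at 16.2 and 15.1% in skin, against 4.03, 7.17 and 4.03% in lymph node. Grb2 did so by a wider margin, at 6.55 and 3.25% in skin, against 0.883, 0.823 and 0.617% in lymph node. So did Cbl, at 5.11 and 4.17% in skin, against 0.655, 1.42 and 0.741% in lymph node. Fyn had 7.57 and 20.3% in skin, against 3.94, 3.89 and 3.82% in lymph node, and no longer overlapped. Of the 37 other members, 12 lay above lymph node in both skin libraries, 3 below (Cd5, Themis and Prkcq) and 22 overlapped. Over all tested genes on this scale, 29.7% lay above and 22.1% below.

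The skin libraries differed from each other most in the less abundant members. Among the 19 of the 20 least abundant genes with counts in both, the higher skin library exceeded the lower by a median ratio of 2.93, with 12 genes over 2-fold and 5 over 5-fold. The largest ratios were 86.1 for Vav1, 57.5 for Sos1 and 12.6 for Txk, all high in skin library 1, and Themis was detected in that library alone. The highest lymph node library exceeded the lowest by a median of 1.57 in the 20 genes, and by more than 5-fold in 0 of them. In the 20 most abundant genes the median ratio was 1.21 between the skin libraries and 1.29 over the lymph node libraries. Even there 3 genes differed more than 2-fold between the skin libraries (Fyn 3.11, Dgka 2.66 and Ptpn22 2.54), against 0 genes over the lymph node libraries.

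**Figure D4:**
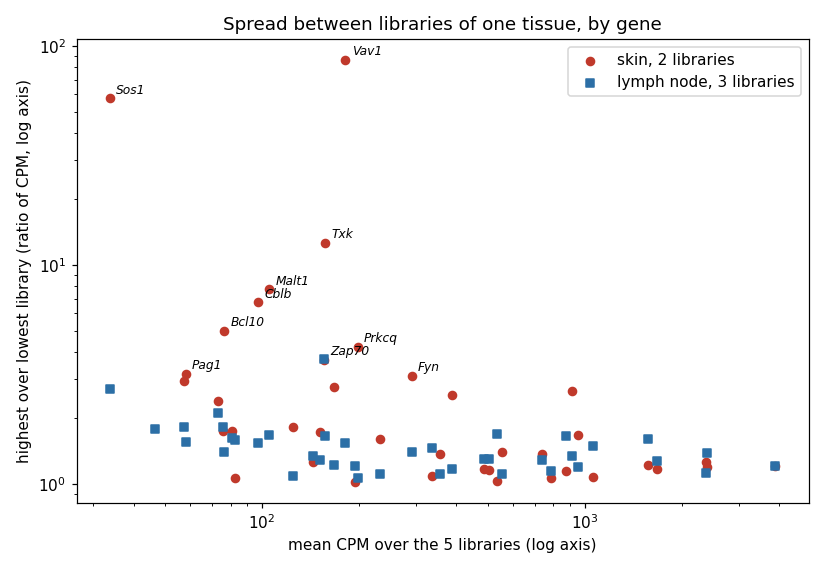
Ratio of the highest to the lowest library within each tissue for each gene, against its mean CPM over the 5 libraries, both on log axes; red circles are the 2 skin libraries and blue squares the 3 lymph node libraries, and Themis has no skin ratio because a skin library is at 0. Vav1 at 86.1 and Sos1 at 57.5 lie highest, and above about 232 CPM most points lie close to 1.

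Which skin library decided a value could be read from fits that each left out a library. Sos1 had a log2 fold change of -4.17 without skin library 1 and 1.66 without skin library 2. Malt1 had -0.29 without skin library 1, and Cblb 0.46, Pag1 -0.10 and Nfatc2 -0.15 without skin library 2. Zap70 turned to 0.25 without skin library 1 and to 0.39 without lymph node library 2, and Plcg1 came to 0.00021 without skin library 1. The CD3 chains, Cd5, Lck, Lat, Lcp2, Ptpn6, Sla, Ubash3a, Grb2, Cbl and Rasgrp1 kept their sign in all 5 fits. Where the tissues do not overlap, that sign is fixed by the separation and is no sign of stability.

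Compared per kilobase of exon, the order of the leading members was the same in both tissues. Cd2 was highest, at 1073 ± 136 CPM per kilobase in skin and 1571 ± 249 in lymph node (SD, n = 2 and 3). Lck followed at 542 ± 85.3 in skin and 994 ± 59.2 in lymph node, then Cd3d at 385 ± 18.1 in skin and 717 ± 150.4 in lymph node. Cd3g was at 339 ± 47.6 in skin and 574 ± 137 in lymph node, and Cd3e at 281 ± 30.2 in skin and 498 ± 60.3 in lymph node. Ranges of 1 SD met in both tissues between Cd3d and Cd3g and between Cd3g and Cd3e, but not between Cd3d and Cd3e. Themis was last of the 40 in skin, at 0.0761 ± 0.108 CPM per kilobase, and position 35 in lymph node, at 6.60 ± 1.84. Fyn stood at position 12 in skin and 21 in lymph node.

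Few genes of the wider TCR pathway were called in edgeR. From a list of 70 further genes, 67 were tested, with a median log2 fold change of -0.0026. In edgeR 1 rose and 2 fell (background 2.40% and 5.30%). That is not above the background and is not a result about the pathway. DESeq2 called 11 higher and 5 lower (background 8.51% and 15.0%), limma-voom 6 higher and 5 lower (background 4.95% and 14.6%). Nck2, the second Nck adaptor, rose, with 113 and 179 CPM in skin Tregs, against 21.1, 20.1 and 28.2 CPM in lymph node Tregs (log2 fold change 2.65, SE 0.45, edgeR adjusted p = 0.0452). Nck1, by contrast, had both skin values below the lymph node range. Dok1, an adaptor that restrains Ras and is also active in B cells, fell, with no count in either skin library, against 15.0, 19.5 and 22.3 CPM in lymph node (edgeR adjusted p = 0.0455). With counts pooled over libraries and 3 counts over the skin group as the floor, Dok1 was at least 131-fold lower by counting error alone. That floor leaves out the spread between libraries, so it is no bound on the tissue difference. The edgeR interval of the log2 fold change of Dok1 was -15.1 to -6.66. With no count in skin, that interval depends on a small count added in the fit, so it is no bound either. The B cell marker Cd79a had no count in either skin library, against 5.69, 8.39 and 24.9 CPM in lymph node, while Cd79b overlapped between tissues, and the part of B cells in the difference of Dok1 was not tested.

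Vav3, an exchange factor related to Vav1, also fell, with 0 and 1 count in the skin libraries, against 27.3, 28.4 and 28.1 CPM in lymph node (edgeR adjusted p = 0.0460). The pooled lymph node to skin ratio of Vav3 was 578 (exact 95% counting interval 104 to 22854, without the spread between libraries). Its edgeR 95% interval on the log2 scale was -12.8 to -5.00, which with 1 count in skin is no firm bound. The calls of Nck2, Dok1 and Vav3 were lost without a low-count filter and when lymph node library 1, 2 or 3 was left out.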

How the data were processed

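Libraries of sorted Tregs (2 from skin, 3 from lymph node) had been made with a SMARTer ultra-low-input kit, per the labels' protocols. The submitters' processing notes name the build mm10 and the tools HTSeq 0.6.1, SAMtools 0.1.19.0, Bowtie2 2.1.0.0, TopHat2 2.0.12 and CASAVA 1.8.2, without roles, and the sources used here state neither options nor strand. The deposited table holds raw read counts per gene symbol, and its header stands 1 cell to the left. The 5 HTSeq summary rows were left out. They hold 64.5 to 72.0% of all counts as not uniquely aligned, 8.35 to 14.0% as outside genes and 0.400 to 0.433% as ambiguous, so genes with near copies are undercounted.

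Counts were tested with edgeR 4.0.16 in R 4.3.3 (filterByExpr with minimum count 10, TMM, quasi-likelihood test, Benjamini-Hochberg adjustment over 11437 genes, threshold 0.05). The SE is the log2 fold change divided by the square root of F, and intervals are at 95%. Counting intervals and the floor of 3 counts leave out all error but that of counting, because PCR copies were not marked by molecular identifiers. With 2 and 3 libraries the smallest two-sided p of an exact permutation test is 0.1, so none was run. Alternatives were other scalings, filters, DESeq2 1.42.0, limma-voom (limma 3.58.1), a replicate block and leaving out each library. The replicate numbers do not pair the samples by any label. Positions and exon lengths are from GENCODE M21, upstream sequences from RefSeq (GRCm38.p6).

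The members and all lists were chosen with earlier results of these data known. All members are reported. Of the wider list, the called genes are named, and 1 further gene that the rule names is not reported here.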

Additional observations from a re-analysis of the deposited data

How the results depend on the processing

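The median log2 fold change of the 40 members stayed negative in all 13 alternatives, between -0.75 and -0.49, but was not below that of all genes with limma-voom, the replicate block or without skin library 1, and 32 of the 40 kept their sign in all 13. Members called lower numbered 1 with DESeq2's size factors in edgeR and 1 without a low-count filter (Cd5 in both), 6 with DESeq2, 7 with limma-voom and 0 with the replicate block, and 0 to 16 when a library was left out. Members called higher numbered 2 with DESeq2, 3 with limma-voom and 0 to 6 when a library was left out. Of the wider pathway, 2 were higher with DESeq2's size factors, 11 with DESeq2, 6 with limma-voom, 0 without a filter, 4 with a minimum count of 50, 0 with the replicate block and 0 to 16 with a library left out. Lower ones numbered 5 with DESeq2, 5 with limma-voom, 0 without a filter, 0 with the block and 0 to 22 with a library left out. Over all genes, higher and lower calls were 275 and 606 with all libraries, 1213 and 2138 with DESeq2, 566 and 1665 with limma-voom, 136 and 179 without a filter, 419 and 972 with a minimum count of 50, and 11 and 10 with the replicate block. They ran from 0 to 2110 and from 0 to 3955 when a library was left out, the zeros in each fit without lymph node library 1, 2 or 3 and the highest counts without skin library 1, where a lone skin library is assumed to vary like the others. The cause was not tested.

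Sos1 turned to -1.01 with limma-voom and -1.49 with the replicate block, and Sla2 to -0.074 with upper-quartile factors and -0.051 with TMM on genes of 100 or more counts in all libraries. With a library left out, the members whose sign turned ranged from -1.63 to 0.39 (Zap70), -0.81 to 0.00021 (Plcg1), -4.17 to 1.66 (Sos1), -0.29 to 2.66 (Malt1), -0.15 to 1.11 (Nfatc2), -2.29 to 0.46 (Cblb), -0.38 to 0.40 (Sla2) and -0.10 to 1.57 (Pag1). Upper-quartile factors and that TMM moved the median of all genes by -0.15 and -0.13, and both called Cd3e as well. In the block fit the adjusted p was 0.604 for Cd5 and 0.712 for Lck. Same-numbered libraries deviated from their group means with correlations of -0.025 and -0.024 over genes. A skin group of 2 limits every test here.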
